A study of Mus musculus with 6 samples.

Results

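The enzymes of glycolysis named here are Gpi1, Pfkl, Pfkp, Aldoa, Tpi1, Gapdh, Pgk1, Pgam1, Pkm and Ldha, taken from a fixed list of 10 symbols and matched to the probes of a mouse Illumina expression array through the platform's annotation table. Of these 10 genes, 9 had at least 1 probe, 18 probes in all of the 45281 on the array, and Gpi1 had no probe annotated under its name. RNA came from the lens of mice at postnatal day 30 (P30), in 2 groups of 3 samples. One group was Tdrd7 heterozygous and the other Tdrd7 null, and both had the strain given as a C57BL/6J and C3A.Blia mix. The heterozygous controls carry 1 altered Tdrd7 allele, so the comparison is with a partial loss and not with wild type, and the labels describe neither the allele nor the sex of the mice. Whether lenses were pooled, and whether the 3 samples of each genotype stand for separate animals, is not in the labels either. The p-values therefore reflect sample-to-sample spread only, and that spread may be technical.

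Glycolysis breaks glucose down to pyruvate in the cytosol and yields ATP without oxygen. Lactate dehydrogenase then turns pyruvate to lactate and returns the NAD+ that the pathway needs. The lens has no blood vessels and its mature fibre cells have lost their mitochondria, so this pathway is known as the main energy source of the fibre mass. Several of the enzymes are also known targets of the hypoxia-inducible factor, which acts when oxygen is low.

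Levels are given as log2 intensities after background correction and quantile normalization, on a scale that allows the same probe to be compared between arrays but not 1 probe with another. Arrays 1, 2 and 3 are heterozygous and arrays 4, 5 and 6 null, by their columns in the deposited raw table. Between 12655 probes (heterozygous array 2) and 16204 probes (null array 5) were detected at a detection p under 0.05. These 2 arrays stood apart from the rest: their best correlation with any other array over all probes was 0.967 and 0.976, against 0.987 or 0.988 for each of the other 4 arrays. The main comparisons below are therefore also given without both of them. The Tdrd7 probe was at 13.98 ± 0.23 (SD, n = 3) on heterozygous and 10.06 ± 0.43 (n = 3) on null arrays, in the direction of the labels. Of 12 lens fibre markers with a probe, 12 were detected on a heterozygous array and 11 on all 6 arrays, and the tissue is labelled lens.

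All 9 measured glycolytic enzymes had a higher mean in null than in heterozygous lenses, and none passed the test. On the probe with the highest mean, the log2 difference (null minus heterozygous) ran from 0.16 for Pfkl to 1.18 for Ldha, with a median of 0.65, while the median over all 8944 genes tested was 0.02 and 53.2% of those genes were higher by sign. By limma with Benjamini-Hochberg adjustment over all 14902 probes tested, 0 of the 9 reached an adjusted p of 0.05 (adjusted p from 0.459 to 0.934), where 27 probes (0.181%) did, 7 higher and 20 lower, and 0.212% of genes. Of their 18 probes 14 were tested, and 12 of the 14 were higher, against 51.8% of all probes. At an unadjusted p under 0.05, 3 of the 9 were higher (Pgk1, Pgam1 and Ldha), against 4.64% of all genes tested. Without heterozygous array 2 and null array 5 the median was 0.19, 7 of 9 were higher against 50.1% of all genes, and 0 of 9 reached an unadjusted p under 0.05 (10.4% of probes did) or an adjusted p of 0.05 (0.794% of genes did). Leaving out either array alone also gave 0 of 9 at an unadjusted p under 0.05. In bulk lens RNA, fewer cells of a type and less RNA per cell cannot be told apart. All 9 probes were detected on all 6 arrays, so none entered the test through 1 group alone.

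**Figure D1:**
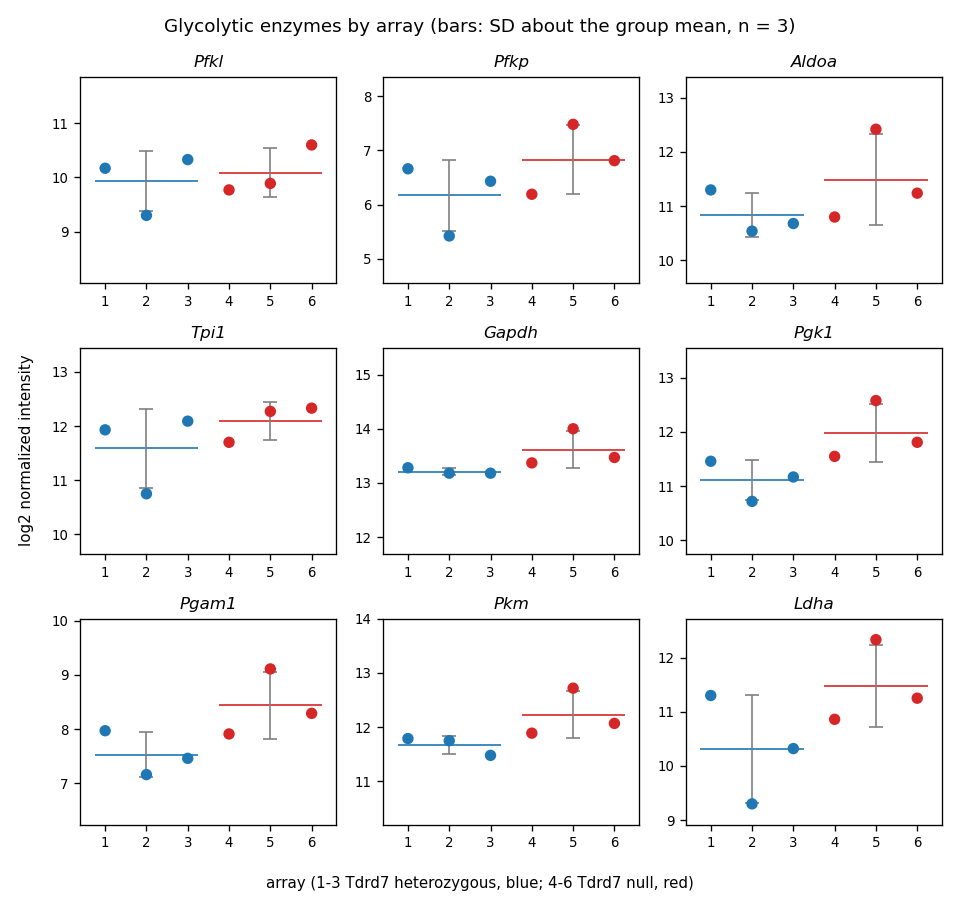
Log2 normalized intensity (vertical axis) of 9 glycolytic enzymes on each of 6 arrays (horizontal axis, 1 to 3 Tdrd7 heterozygous in blue, 4 to 6 Tdrd7 null in red). Points are arrays, lines group means and bars the SD (n = 3). Every panel spans the same log2 range. Heterozygous array 2 is the lowest of the 6 for 7 enzymes and null array 5 the highest for 7.

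Phosphofructokinase, which commits fructose 6-phosphate to glycolysis, was measured through its liver-type subunit Pfkl and its platelet-type subunit Pfkp. Log2 intensity of Pfkl (probe ILMN_1236539) was 10.17, 9.30 and 10.33 in the heterozygous samples (arrays 1, 2 and 3) and 9.77, 9.89 and 10.60 in the null samples (arrays 4, 5 and 6). The groups overlapped, since 2 null values lay below 2 heterozygous values, and only heterozygous array 2 was clearly low. The Pfkl difference was 0.16 ± 0.33 (SE, limma adjusted p = 0.934), with a 95% confidence interval from -0.58 to 0.89. Pfkp (ILMN_1237695) was at 6.66, 5.42 and 6.43 on the heterozygous arrays and 6.19, 7.48 and 6.81 on the null arrays. Here heterozygous array 2 was the lowest and null array 5 the highest, and the remaining 4 values lay between 6.19 and 6.81 with the groups mixed. The Pfkp difference of 0.66 ± 0.40 (adjusted p = 0.704) became -0.05 ± 0.25 without those 2 arrays, and that of Pfkl -0.06 ± 0.27. The dimmer probes of both genes showed little: a second Pfkl probe, detected on 3 arrays, differed by -0.03 ± 0.21, another Pfkp probe, also detected on 3, by 0.20 ± 0.22, and a further Pfkp probe was detected on 2 arrays and not tested.

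Aldolase A (Aldoa) splits fructose 1,6-bisphosphate, and triose phosphate isomerase (Tpi1) interconverts the resulting trioses. Aldoa (ILMN_2599130) was at 11.30, 10.54 and 10.68 on the heterozygous arrays and 10.80, 12.42 and 11.24 on the null arrays. Null array 5 stood more than a log2 unit above the other null arrays, while the rest overlapped across the groups. The Aldoa difference was 0.65 ± 0.40 (adjusted p = 0.709) with all arrays and 0.03 ± 0.26 without arrays 2 and 5. Tpi1 (ILMN_1230137) was at 11.93, 10.75 and 12.09 on the heterozygous arrays and 11.70, 12.27 and 12.33 on the null arrays. In contrast to Aldoa, Tpi1 was set apart by heterozygous array 2, which was 1.26 below the mean of the other 2 heterozygous arrays, while null array 5 was 0.25 above that of the other 2 null arrays. Its difference was 0.52 ± 0.36 (adjusted p = 0.753), and 0.02 ± 0.24 without both arrays. The 3 Tpi1 probes disagreed in sign, since the second gave 0.23 ± 0.35 and the dimmest -0.17 ± 0.23, the latter being highest on null array 5 and heterozygous array 2.

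The later enzymes, which recover ATP and NAD+, included the 3 whose null values lay wholly above the heterozygous ones (Gapdh, Pgk1 and Pkm), a pattern seen in 7.7% of all genes tested. With arrays scaled to one median instead of quantile normalization, 0 of the 9 had it. Gapdh, glyceraldehyde 3-phosphate dehydrogenase (ILMN_1377924), was at 13.28, 13.18 and 13.18 on the heterozygous arrays and 13.37, 14.00 and 13.47 on the null arrays. The heterozygous values of Gapdh lay within an SD of 0.06, and the lowest null value was just above the highest of them. The Gapdh difference was 0.40 ± 0.23 (adjusted p = 0.675), or 0.19 ± 0.20 without arrays 2 and 5, and it was -0.10 on the authors' series matrix values. Its raw signal was between 18.3% and 40.5% of the brightest signal of each array. Phosphoglycerate kinase 1 (Pgk1, ILMN_2651886), the first ATP-forming step, was at 11.46, 10.72 and 11.17 on the heterozygous arrays and 11.55, 12.58 and 11.81 on the null arrays. Its null values lay wholly above, by a small margin between heterozygous array 1 and null array 4. The Pgk1 difference was 0.86 ± 0.31 (95% interval 0.17 to 1.56, 1.82-fold, unadjusted p = 0.0202, adjusted p = 0.459) and 0.36 ± 0.22 without arrays 2 and 5 (interval -0.12 to 0.85). Of the other Pgk1 probes, 1 was detected on 1 array and 1 on none, and neither was tested.

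Phosphoglycerate mutase 1 (Pgam1) moves the phosphate group of 3-phosphoglycerate, and its 2 probes gave the same sign. On the brighter probe (ILMN_2856157), Pgam1 was at 7.97, 7.16 and 7.46 on the heterozygous arrays and 7.91, 9.11 and 8.29 on the null arrays. The groups overlapped by the narrow margin of heterozygous array 1 over null array 4. The Pgam1 difference was 0.91 ± 0.34 (95% interval 0.15 to 1.67, 1.88-fold, unadjusted p = 0.0235, adjusted p = 0.475), and 0.39 ± 0.25 without arrays 2 and 5. The dimmer Pgam1 probe was at 6.01, 5.60 and 5.70 on the heterozygous and 6.09, 6.37 and 6.19 on the null arrays, without overlap. It differed by 0.45 ± 0.21 (adjusted p = 0.591), and by 0.30 ± 0.21 without both arrays.

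Muscle pyruvate kinase (Pkm, ILMN_2756041), which makes pyruvate and ATP, was at 11.79, 11.75 and 11.48 on the heterozygous arrays and 11.89, 12.72 and 12.07 on the null arrays. The null values lay wholly above, by a small margin on null array 4, and Pkm was the only one of the 9 to be higher on heterozygous array 2 than the mean of arrays 1 and 3, by 0.12. Its difference was 0.55 ± 0.26 (adjusted p = 0.588), or 0.33 ± 0.21 without arrays 2 and 5. A second Pkm probe was detected on no array, and the M1 and M2 splice forms of pyruvate kinase were not told apart here. Lactate dehydrogenase A (Ldha, ILMN_1257965) was at 11.30, 9.30 and 10.32 on the heterozygous arrays and 10.86, 12.33 and 11.25 on the null arrays. The groups overlapped and Ldha had the widest heterozygous spread of the 9, with heterozygous array 1 above 2 of the 3 null arrays and an SD of 1.00 in heterozygous and 0.76 in null lenses. The Ldha difference was 1.18 ± 0.51 (95% interval 0.02 to 2.33, 2.26-fold, unadjusted p = 0.0462, adjusted p = 0.560), and 0.24 ± 0.31 without arrays 2 and 5. Probe sequences were not used here, so signal from near-identical gene copies, which Gapdh among others is known to have, was not tested.

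**Figure D2:**
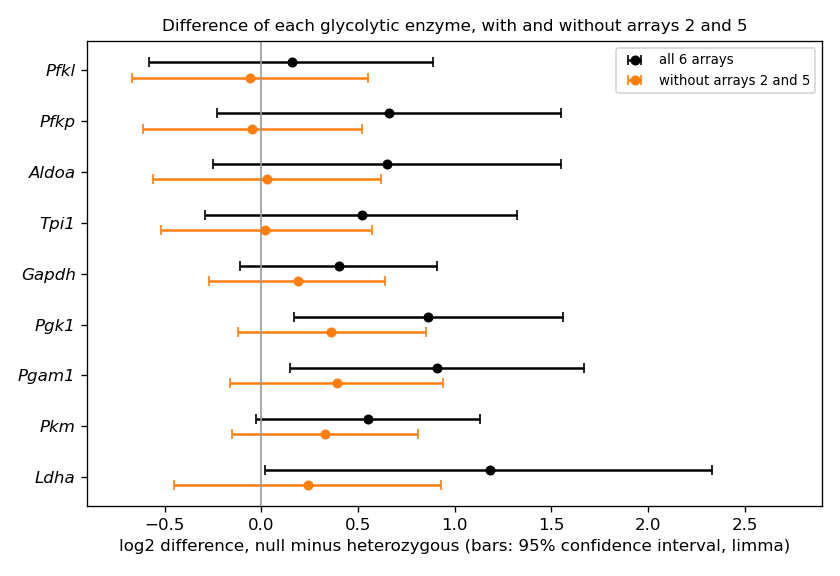
Log2 difference, null minus heterozygous (horizontal axis), of 9 glycolytic enzymes with 95% confidence intervals from limma, with all 6 arrays (black) and without heterozygous array 2 and null array 5 (orange). The intervals of Pgk1, Pgam1 and Ldha lie above 0 with all 6 arrays, and all 9 include 0 without those 2 arrays.

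Without arrays 2 and 5 each of the 9 intervals included 0, with lower ends down to -0.67 and upper ends up to 0.94. Gapdh, Pgk1 and Pkm again had null values wholly above the heterozygous ones, 3 of 9 where 20.6% of all genes did with 2 arrays against 2. Pfkl, Pfkp, Aldoa and Tpi1, which act before the payoff steps, differed by between -0.06 and 0.03 there, and Gapdh, Pgk1, Pgam1, Pkm and Ldha by between 0.19 and 0.39. These sets were told apart after their values were seen, and the difference between them was not tested.

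The enzymes varied together from array to array. Relative to the heterozygous mean of each gene, the mean of the 9 was 0.39, -0.47 and 0.09 for heterozygous arrays 1, 2 and 3, then 0.19, 1.16 and 0.61 for null arrays 4, 5 and 6. Heterozygous array 2 was the lowest of the 6 arrays for 7 of the 9 enzymes, against 29.8% of all probes tested, and null array 5 was the highest for 7 of 9, against 19.9%. Null array 4 was the lowest null array for 9 of 9 enzymes, where 28.1% of all probes had that order, and it lay below heterozygous array 1 for 6 of 9, against 49% of all genes. On null array 6, 9 of 9 enzymes were above heterozygous array 3, against 50.3% of all genes. The array means of the 2 groups therefore interleave, in the order heterozygous 2, heterozygous 3, null 4, heterozygous 1, null 6, null 5. Pfkl followed this order least, with a Pearson r of 0.482 with the mean of the 9 over the 6 arrays, while Ldha, Pfkp, Pgk1 and Pgam1 were at 0.977 to 0.980. These values describe 6 arrays, and each enzyme is part of the mean it was set against.

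The promoters of the 3 enzymes with an unadjusted limma p under 0.05 (Ldha, Pgk1 and Pgam1) and of the one that followed the others least (Pfkl) are shown. They were chosen by these expression values, and a link between promoter sites and levels was not tested. Sequences are from RefSeq on GRCm38.p6, 250 bases before to 50 after the annotated start, written 5′ to 3′ on the gene's strand. Capitals mark ACGTG and GCGTG on either strand (CACGT and CACGC when read on the shown strand), the core letters of the hypoxia response element. They stand at chr7:46845554-46845853 (plus strand, the upstream of 2 Ldha windows), chrX:106186850-106187149 (plus, Pgk1), chr19:41911621-41911920 (plus, Pgam1) and chr10:78009758-78010057 (minus, Pfkl).
Ldha: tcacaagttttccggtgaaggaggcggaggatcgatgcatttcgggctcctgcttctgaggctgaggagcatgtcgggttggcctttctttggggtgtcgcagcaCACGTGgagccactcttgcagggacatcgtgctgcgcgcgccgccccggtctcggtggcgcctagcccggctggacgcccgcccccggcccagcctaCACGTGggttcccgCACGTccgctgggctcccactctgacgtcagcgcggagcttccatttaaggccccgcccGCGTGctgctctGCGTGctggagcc
Pgk1: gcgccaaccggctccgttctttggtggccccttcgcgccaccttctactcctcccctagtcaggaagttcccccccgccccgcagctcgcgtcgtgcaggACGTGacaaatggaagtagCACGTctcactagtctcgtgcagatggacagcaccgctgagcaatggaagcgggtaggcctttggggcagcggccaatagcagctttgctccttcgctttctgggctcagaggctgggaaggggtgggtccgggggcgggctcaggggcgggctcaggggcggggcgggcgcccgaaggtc
Pgam1: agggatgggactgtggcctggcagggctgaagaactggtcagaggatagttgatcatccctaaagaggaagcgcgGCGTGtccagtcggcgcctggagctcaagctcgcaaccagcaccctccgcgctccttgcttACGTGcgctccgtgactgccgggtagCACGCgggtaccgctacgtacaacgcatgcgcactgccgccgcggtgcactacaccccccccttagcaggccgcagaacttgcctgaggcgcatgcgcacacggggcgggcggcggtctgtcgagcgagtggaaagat
Pfkl: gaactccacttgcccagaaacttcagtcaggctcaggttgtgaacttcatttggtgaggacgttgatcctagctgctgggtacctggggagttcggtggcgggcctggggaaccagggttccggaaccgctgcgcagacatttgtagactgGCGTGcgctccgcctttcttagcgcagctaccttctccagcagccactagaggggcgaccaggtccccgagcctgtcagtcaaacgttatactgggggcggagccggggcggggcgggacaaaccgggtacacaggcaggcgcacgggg

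The Ldha window held 5 separate sites, 2 of which are CACGTG and so match on both strands and overlap, the Pgk1 window 2, the Pgam1 window 3 and the Pfkl window 1. Pfkp had 4 sites and Gapdh 3, the upstream Pkm window had 0 and its other window 2, the 3 Aldoa windows had 0, 1 and 1, and the Tpi1 and Gpi1 windows had 0. Of 32851 mouse promoter windows 43.8% held at least 1 site. Over the best window of each gene, 8 of the 10 glycolytic genes held at least 1 site, against 46.7% of 27025 genes, and 6 of 10 held at least 2, against 19.2%. A match of these letters is a description of the sequence and not a measured binding site.

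On the arrays that stood apart, some markers of other cells moved with the enzymes and others did not. Of 10 lens epithelium markers, 9 were tested, and their mean was 0.85, -1.38 and 0.53 for heterozygous arrays 1, 2 and 3, then 0.38, 0.14 and 0.66 for null arrays 4, 5 and 6. Without arrays 2 and 5, 1 of the 9 epithelial markers was higher in null lenses (Slc7a3, by 0.23), where 50.1% of all genes were. The epithelial gap junction gene Gja1 was at 11.64, 6.64 and 11.30 on the heterozygous and 10.67, 7.80 and 11.05 on the null arrays, low on arrays 2 and 5 alike. All 9 epithelial markers tested were lowest on heterozygous array 2, against 29.8% of all probes tested. On null array 5 they were split, since Slc7a3, Cp and Foxe3 were highest there, at 6.65, 10.28 and 5.95. Slc7a3 was detected on the 3 null arrays only, and was at 4.50, 4.36 and 4.65 on the heterozygous arrays. It entered the list mean through the group where it is high, so its values are no support for a difference. Slc2a1, the glucose transporter GLUT1 that brings glucose to the pathway, was at 12.48, 9.54 and 12.04 on the heterozygous and 12.12, 11.82 and 12.37 on the null arrays. Its difference of 0.75 ± 0.64 (limma adjusted p = 0.803) became -0.01 ± 0.23 without arrays 2 and 5. Leucocyte markers, 10 tested of 18, had means from -0.05 to 0.07 on the heterozygous arrays and of 0.84, 3.41 and 1.69 on null arrays 4, 5 and 6, the same order as the enzymes have on the null arrays. Of these markers Ptprc, Itgam and Cx3cr1 were detected on no array, and 5 of the 17 with a probe were detected on any heterozygous array. Among them Laptm5 was at 5.12, 4.36 and 4.82 in the heterozygous and 6.94, 10.05 and 8.54 in the null samples. Lyz2, C1qb, C1qc, Fcer1g and Cd52 were detected on the 3 null arrays only. They entered the list mean through the group where they are high, so that mean is no support for a difference. Csf1r and Aif1, detected on all 6 arrays, differed by 0.21 ± 0.32 and -0.13 ± 0.27, and another Aif1 probe by 0.94 ± 0.31. Retinal photoreceptor markers, 11 tested of 12, had means of -0.90, 0.71 and 0.19, then 0.75, 0.42 and 0.44, which is not the order of the enzymes. All 11 were higher in null lenses (median 0.48), and all 11 again without arrays 2 and 5 (median 0.99), where 50.1% of all genes were. On lens fibre markers, 11 tested of 14, the means lay between -0.18 and 0.14 on all arrays. Single fibre markers moved more. Hsf4 was 1.55 above the mean of heterozygous arrays 1 and 3 on array 2, and 1.37 above that of null arrays 4 and 6 on array 5. For Dnase2b these values were 1.02 and -0.12. Of the 11, 10 were lower in null lenses by small amounts (median -0.07, lowest -0.49 for Birc7), where 53.2% of all genes were higher. Smooth muscle markers, 3 tested of 6, were all 3 higher (median 0.60), where 53.2% of all genes were. Their means were 0.22, -0.31 and 0.10, then 0.31, 1.46 and 0.42, the rank order of the enzymes within both groups. Of the 3 only Myl9, a myosin light chain, had that order itself, at 4.56 on heterozygous array 2 and 9.16 on null array 5. It differed by 1.40, and by -0.21 without those arrays. Des was instead highest on heterozygous array 2, at 5.33. Acta2 was lowest of the null arrays on null array 5, at 14.30. On heterozygous array 2 and null array 5, where the enzymes were at -0.47 and 1.16, pigment cell markers (3 tested of 7) were at 0.77 and -0.79. Red cell markers (3 of 5) were at 0.47 and -0.55 there, and vascular markers (2 of 5) at 0.34 and -0.66. Corneal markers (2 of 6) were at -1.94 and -1.84. The part of RNA from any of these cells in the enzyme values was not tested. With array 5 left out the 9 enzymes had a median of 0.32, and with array 2 left out 0.48.

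**Figure D3:**
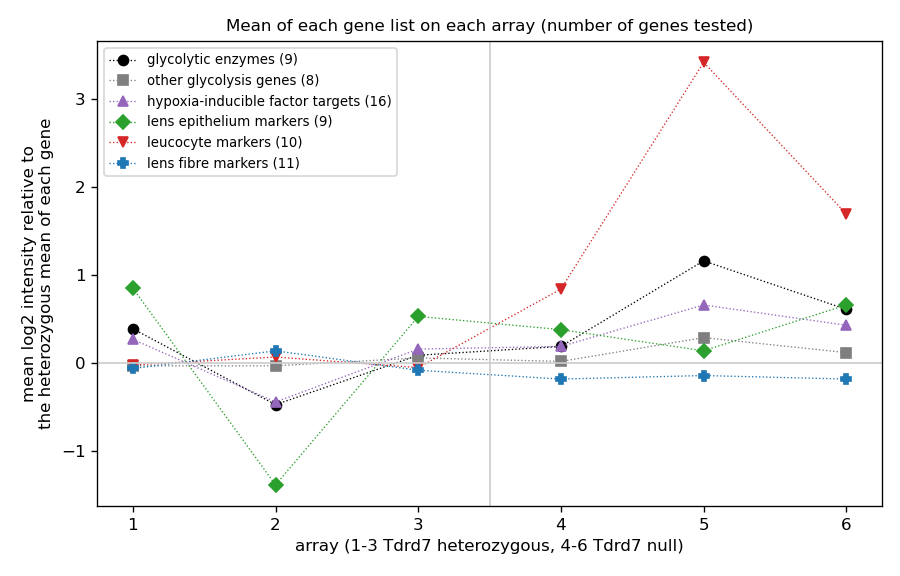
Mean log2 intensity of each gene list relative to the heterozygous mean of each gene (vertical axis) on each array (horizontal axis). The number of genes tested is in the legend, points are single arrays, and dotted lines only join points of one list. Glycolytic enzymes and lens epithelium markers are both lowest on heterozygous array 2, and glycolytic enzymes and leucocyte markers are both highest on null array 5.

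Other genes of glycolysis gave differences of both signs, from -0.67 to 0.92, with a smaller median than the 9 enzymes. Of 20 further glycolysis genes, 16 had a probe and 8 were tested, 6 higher and 2 lower, with a median difference of 0.17, and 0 passed in limma with 2 at an unadjusted p under 0.05 (over all probes tested, 8.72% were). Bpgm, Gapdhs, Hkdc1 and Ldhb were detected on no array. The beta-type enolase Eno3, best known from muscle, was at 10.73, 11.09 and 10.78 on the heterozygous and 11.20, 12.23 and 11.92 on the null arrays, without overlap. Its difference of 0.92 ± 0.28 (limma unadjusted p = 0.00964, adjusted p = 0.349) was 0.80 ± 0.26 without arrays 2 and 5. Leaving out those arrays changed it less than it changed any of the 9 enzymes, whose largest difference there was 0.39. The muscle-type mutase Pgam2 had the opposite sign to Pgam1, at 13.15, 12.87 and 13.28 on the heterozygous and 12.76, 11.81 and 12.73 on the null arrays. All null values of Pgam2 lay below the heterozygous ones, with a difference of -0.67 ± 0.29 (adjusted p = 0.551), and of -0.48 ± 0.20 without arrays 2 and 5. The muscle-type phosphofructokinase subunit Pfkm differed by 0.58 ± 0.32 (adjusted p = 0.656), and by 0.58 ± 0.28 and 0.20 ± 0.21 on its other probes. Without arrays 2 and 5 its first probe gave 0.28 ± 0.23.

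**Figure D4:**
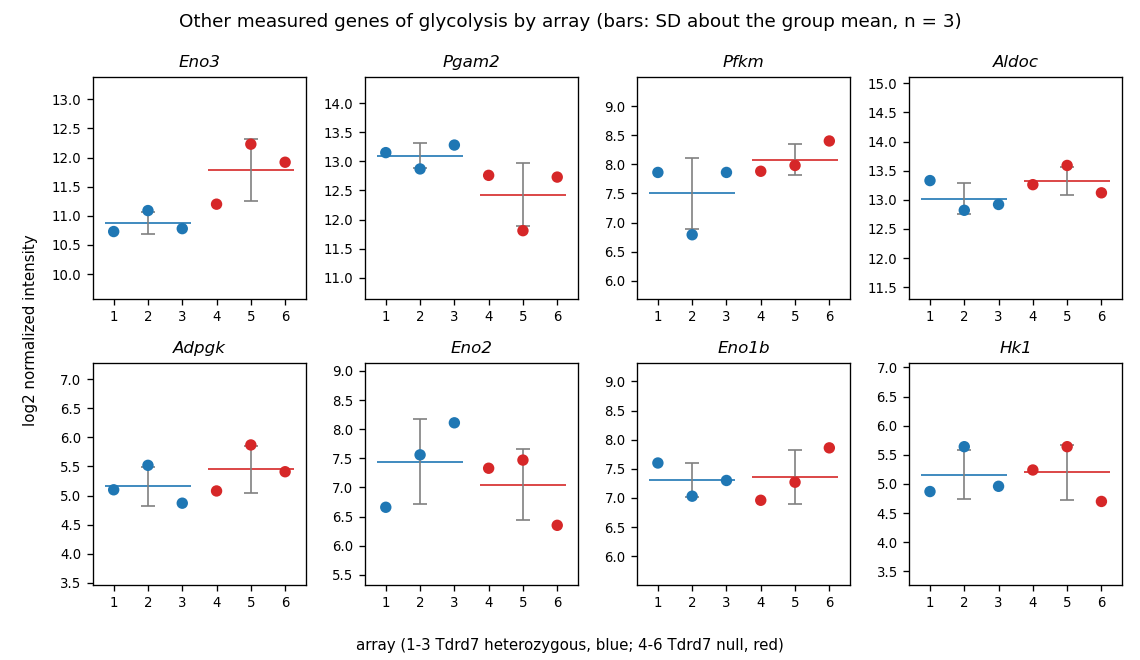
Log2 normalized intensity (vertical axis) of the 8 other glycolysis genes tested, on each array (horizontal axis, 1 to 3 Tdrd7 heterozygous in blue, 4 to 6 Tdrd7 null in red). Points are arrays, lines group means and bars the SD (n = 3). Eno3 is above and Pgam2 below in all 3 null arrays.

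The routes into and out of glycolysis showed small median differences, while single genes ran from -0.58 for Pgls to 0.75 for Slc2a1. Of 12 regulators of flux, 4 were tested, 3 higher and 1 lower (median 0.26, and 0.05 without arrays 2 and 5), and 0 were at an unadjusted p under 0.05. Pdk1, a kinase that keeps pyruvate out of mitochondria, was highest on null array 5 at 7.87, with the other null arrays at 7.04 and 7.24 and heterozygous arrays at 7.01, 6.44 and 7.09. Its difference of 0.53 ± 0.28 (limma adjusted p = 0.645) was 0.09 without arrays 2 and 5, much as for Aldoa and Pfkp. Of 10 glucose and lactate transport genes, 5 were tested, 2 higher and 3 lower (median -0.13), and of 8 genes of pyruvate entry to mitochondria 4 were tested, 2 in each direction (median -0.04). Pdha1, a subunit of pyruvate dehydrogenase, differed by 0.13 ± 0.19 (adjusted p = 0.898). Of 11 genes of the pentose phosphate and polyol branches, 7 were tested, 3 higher (median 0.00). Among them transaldolase (Taldo1) was at 8.41, 7.78 and 8.72 on the heterozygous and 8.84, 8.74 and 9.35 on the null arrays, without overlap, and differed by 0.67 ± 0.29 (adjusted p = 0.551). In these 4 lists 0 genes passed in limma, and Taldo1 alone of the 20 tested was at an unadjusted p under 0.05, against 8.72% of all probes.

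A list of 20 other targets and regulators of the hypoxia-inducible factor, which shares Slc2a1, Pdk1 and Pfkfb3 with the lists above, had a median between that of the enzymes and that of all genes. Of its 16 tested members 12 were higher, where 53.2% of all genes were, with a median of 0.40 that was 0.10 without arrays 2 and 5. The other 4 were lower, down to -0.34, and Adm, Bnip3, Ero1a and Pfkfb3 were detected on no array. Values are given below for the 3 members with the smallest p in limma, all higher. By limma 0 passed, with 3 of the 16 below an unadjusted p of 0.05, all higher, against 4.64% of all genes. Its mean was 0.27, -0.44 and 0.16 for heterozygous arrays 1, 2 and 3, then 0.19, 0.66 and 0.43 for null arrays 4, 5 and 6, the same rank order of arrays within each group as for the 9 enzymes. Ankrd37, a known target of that factor, was at 5.59, 5.19 and 5.37 on the heterozygous and 6.12, 7.32 and 6.32 on the null arrays, without overlap. Its difference was 1.20 ± 0.32 (adjusted p = 0.252), and 0.77 without arrays 2 and 5. Egln3, a prolyl hydroxylase that senses oxygen, differed by 0.92 ± 0.37 (adjusted p = 0.524) and, without arrays 2 and 5, by 0.39. Car9, a carbonic anhydrase of the cell surface whose brightest probe was detected on 5 of 6 arrays, differed by 1.62 ± 0.68, 1.72 ± 0.50 and 1.01 ± 0.41 on its 3 probes (adjusted p from 0.313 to 0.545), and by 0.59, 0.79 and 0.43 without arrays 2 and 5.

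The genes whose levels over the 6 arrays were most like the mean of the 9 enzymes, among 8935 other genes, were Shisa5 (Pearson r = 0.9927), Apoe (0.9916), Lpar6 (0.9914), Bzw2 (0.988) and Arpc4 (0.9871). Apoe, the apolipoprotein E of lipid transport, was at 6.40, 4.38 and 5.56 on the heterozygous and 6.08, 8.75 and 6.83 on the null arrays, a wider swing than any of the enzymes had. It differed by 1.77 ± 0.67 and missed the threshold (limma adjusted p = 0.494). On heterozygous array 2, Apoe, Shisa5 and Lpar6 were at 4.38, 4.33 and 4.33, near the 4.35 there of a Pgk1 probe detected on no array. Their likeness to the enzymes thus rests partly on a value near background. In Bzw2 and Arpc4, a subunit of the actin-nucleating Arp2/3 complex, the differences were 0.30 ± 0.21 and 0.37 ± 0.22 (adjusted p = 0.757 and 0.700). Of the 8935 genes, 217 (2.43%) had an r over 0.9, and r over 6 arrays is given as a description.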

How the data were processed

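Total RNA of 3 Tdrd7 heterozygous and 3 Tdrd7 null lens samples was extracted with a Qiagen RNeasy kit and labelled as biotinylated cRNA with the Illumina TotalPrep kit, per the labels' protocols. For scanner and software: not given in the sources used here. Per the file headers, the raw table deposited by the authors pairs a linear intensity (array medians 60.5 to 71.3) with a p-value of detection for each probe. The array medians differ, and no normalization is stated. Its columns name the group only, so arrays have no replicate number. The authors' series matrix, a rescaled intensity of unstated method (column medians 64.8 to 66.2, linear, same direction), served as an alternative.

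Intensities were background-corrected with normexp, with negative controls inferred from detection p-values, an offset of 16, log2 and quantile normalization (limma 3.58.1, R 4.3.3). With this offset dim probes differ less than they otherwise would. Of 45281 probes, 14902 detected (p under 0.05) on 3 or more arrays were tested by lmFit and eBayes, both directions, with Benjamini-Hochberg adjustment. Of all probes 34885 had 1 gene symbol, 18 several and 10378 none. A gene (8944 tested) is represented by its probe with the highest mean, and other probes are given where named. The fit was tested on simulated data. Members and gene lists were chosen with earlier results of these data known, and named genes beyond the 10 are up to 3 of each pathway list with the smallest p, the 5 most alike over arrays, and Tdrd7. Genes named from the marker lists, and undetected genes, were chosen after their values were seen. Alternatives were other background, scaling, filter, moderation and weights, the series matrix, and arrays left out. With 3 arrays a group, their number limits the precision.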

Additional observations from a re-analysis of the deposited data

How the results depend on the processing

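The 0 of 9 enzymes past the threshold in limma was 0 in each of 15 alternatives, with 0 to 6 at an unadjusted p under 0.05 and the lowest adjusted p at 0.241. The 6 were without null array 4, where 1146 of all probes tested were at an unadjusted limma p under 0.05, against 1300 with all 6 arrays. The median difference of 0.65 lay between 0.19 (without heterozygous array 2 and null array 5) and 0.96 (without null array 4), and 7 to 9 enzymes were higher. Scaling arrays to one median moved the median of all probes to 0.28 and that of the enzymes to 0.94, 0.65 above it, with 0 enzymes free of overlap between groups in place of 3. Leaving out 1 array gave 3 to 6 (6 without heterozygous array 1 or null array 4). The share of all genes free of overlap was not taken with 1 array left out. That share was 7.7% with all 6 arrays and 20.6% without arrays 2 and 5, so it depends on the number of arrays. Single enzymes changed sign in 7 of 135 cases. Gapdh was -0.10 on series matrix values with and without the replicate block. Pfkl was -0.12 with array weights, -0.06 without arrays 2 and 5, and -0.16 to 0.35 with 1 array left out, and Pfkp was -0.05 without arrays 2 and 5. The cause was not tested.

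The 27 probes past the threshold (7 higher, 20 lower) became 9 with no background correction (4 higher, 5 lower), 3 after median scaling (2 higher, 1 lower), 266 with array weights (120 higher, 146 lower), 111 without arrays 2 and 5 (53 higher, 58 lower) and 2 to 30 with 1 array left out (7 without heterozygous array 1 or 3, 13 without null array 5, 2 without null array 6). Limma gave 0 with no filter on dim probes (2772 at an unadjusted p under 0.05), 0 on series matrix values (1058) and 0 there with the replicate block (1307). Only the series matrix carries replicate numbers. Deviations from group means correlated between same-numbered samples at -0.008, 0.251 and 0.571 for numbers 1, 2 and 3. The highest correlation with a differently numbered sample was 0.075, 0.033 and -0.048. Same-numbered samples were thus the most alike for numbers 2 and 3 and not for number 1. Whether the numbers mark pairs is not settled by this, and the main fit did not use them as pairs. With the replicate block the enzymes' median was 0.40, as without it.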
